A study of Mus musculus with 31 samples.

Results

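The nucleosome remodelling and deacetylase (NuRD) complex was followed through 10 of its genes, Gatad2a, Gatad2b, Chd3, Chd4, Mbd2, Mbd3, Mta1, Mta2, Mta3 and Rbbp7, which were taken by gene symbol from the 20544 symbols of the count table and read in all 31 embryos. Gatad2a was chosen by its difference between the 2 groups of embryos in an earlier comparison of these same counts, and the others because they belong to the same complex, so the group difference of Gatad2a is described here without a test. Each library is the RNA of 1 mouse embryo at the 2-cell stage, obtained by in vitro fertilization. Control sperm gave 16 of the embryos, and sperm that had gone through sperm energy restriction and recovery (SER) gave 15. For SER, sperm from 1 cauda epididymis were held without glucose and pyruvate (IVF-TYH −/−) for 15 to 45 min, until they stopped moving, and were then given both nutrients back. Control sperm, from the other cauda, spent that time in complete medium (IVF-TYH +/+) and went through the same recovery step, so the comparison asks whether the passing starvation of the sperm shows in the RNA of the embryo. All embryos were wild type and came from sperm of C57BL/6J males aged 12 to 14 weeks and eggs of superovulated CD1 females aged 8 to 10 weeks, and all were collected 32 h after insemination. The study reports independent batches of embryos, but neither the labels nor the table assign embryos to individual males, females or batches. The p-values therefore measure the spread between embryos, and batch could not be entered in a fit. Embryos that share a male, a female or a batch are not independent, which these p-values do not take into account.

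NuRD joins a chromatin remodelling ATPase to histone deacetylases and is best known for closing and silencing regulatory DNA. Chd3 and Chd4 supply alternative ATPases, Gatad2a and Gatad2b are alternative scaffold subunits that tie the ATPase to the rest, Mbd2 and Mbd3 are alternative methyl-CpG-binding-domain subunits, and the Mta proteins hold the deacetylases Hdac1 and Hdac2 and the histone chaperones Rbbp4 and Rbbp7. At the 2-cell stage the mouse embryo degrades RNA stored in the egg and starts major transcription from its own genome, so a transcript measured here can be stored, newly made or both.

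Gatad2a and Mta2 are the members whose estimated level was highest in SER-generated relative to control-generated embryos. Their promoter windows are shown for that reason, as the reference sequence from 250 bases before to 50 bases after the annotated start (RefSeq, GRCm38.p6), written 5′ to 3′ on the strand of the gene. Gatad2a has 2 annotated windows, and the one shown, chr8:69996335-69996634 on the minus strand, is the one at the outer end of the annotated gene. The Mta2 window is chr19:8941670-8941969 on the plus strand. Capitals mark the GC box (GGGCGG, or CCGCCC where it lies on the other strand) and the CCAAT box (CCAAT, or ATTGG on the other strand).
Gatad2a: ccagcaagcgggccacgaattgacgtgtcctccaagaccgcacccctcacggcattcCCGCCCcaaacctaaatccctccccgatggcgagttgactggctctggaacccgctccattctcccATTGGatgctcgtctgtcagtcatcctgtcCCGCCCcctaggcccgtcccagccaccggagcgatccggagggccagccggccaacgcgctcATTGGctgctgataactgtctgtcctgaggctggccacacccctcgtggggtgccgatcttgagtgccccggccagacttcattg
Mta2: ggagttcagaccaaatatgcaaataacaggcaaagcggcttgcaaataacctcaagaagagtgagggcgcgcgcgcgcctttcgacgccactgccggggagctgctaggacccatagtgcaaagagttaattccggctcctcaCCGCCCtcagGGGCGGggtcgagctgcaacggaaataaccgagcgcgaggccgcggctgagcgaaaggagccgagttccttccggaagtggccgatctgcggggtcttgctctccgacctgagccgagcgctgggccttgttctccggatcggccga
The Gatad2a window held 2 GC boxes, 2 CCAAT boxes and 21 CpG sites, and the Mta2 window held 2 GC boxes, 0 CCAAT boxes and 30 CpG sites. The other Gatad2a window, chr8:69974334-69974633, held 4 GC boxes, 0 CCAAT boxes and 26 CpG sites, so the presence of CCAAT boxes depends on the window. Among 32851 mouse promoter windows of the same length, 35.7% held a GC box and 37.4% a CCAAT box on either strand, and the median window had 7 CpG sites. Windows were found for 7 of the 10 members (Chd4, Gatad2a, Gatad2b, Mbd3, Mta1, Mta2 and Rbbp7).

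The libraries held between 532945 and 2085222 counts in control-generated embryos and between 642321 and 3088396 in SER-generated embryos. Values are counts-per-million (CPM), each scaled to its library total, and intervals from counting alone are a lower bound on the error because part of the reads carried no molecular identifier. A level in CPM is a share of the library, so more RNA of a gene and less RNA of all others cannot be told apart. The summed markers of the egg (15 of the 16 genes listed are in the table, 1232 to 12382 CPM) and of 2-cell transcription (17 of 18 genes) were above 0 in every embryo, although single markers were not (Mos was at 0 in 10 embryos and Tdpoz3 in 5), and sperm genes summed to at most 30.9 CPM. From the rest, 2 embryos stood apart. Control replicate 4 and SER replicate 15 had summed zygotic levels of 45.3 and 141 CPM, against 501 CPM or more in all others, and the highest summed maternal levels, 11558 and 12382 CPM. Control replicate 3 also had a high maternal level (10419 CPM) with a zygotic level of 2162 CPM. Control replicate 5 had 1679 CPM summed over a list of cumulus and granulosa genes, against at most 102 CPM elsewhere. In that list Cyp11a1 had a control mean of 106 CPM (SER mean 2.45 CPM). Inhba (9.62 CPM in control, 0.547 in SER), Fst (6.94 and 0.057) and Star (3.26 and 2.22) also had higher control means. Control means of all other genes in the list, Has2, Ptx3, Ptgs2 and Tnfaip6 among them, were at most 1.06 CPM. Results that rest on the embryos named here are given with and without them.

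Gatad2a (chr8:69907076-69996384, minus strand, mm10), the p66α scaffold subunit, was detected in every embryo, with 119 to 1611 counts. In control-generated embryos its level was 118 CPM at the lowest, 290 CPM at the median and 399 CPM at the highest. In SER-generated embryos the lowest was 154 CPM, the median 391 CPM and the highest 670 CPM. The groups overlapped in their lower part, whereas 7 of the 15 SER-generated embryos lay above the highest control-generated embryo. These 7 were SER replicates 4 and 9 to 14. SER replicates 1 to 3, 5 to 8 and 15 had 154 to 391 CPM, within the control range. Control-generated embryos also differed along their replicate numbers. Control replicates 1 to 4 had 118 to 200 CPM, replicates 5 to 8 had 209 to 381 CPM, and replicates 9 to 16 had 239 to 399 CPM. Whether neighbouring replicate numbers share a batch is not given for either group, and the part of batch in the difference was not tested. The means were 283 ± 91.8 CPM (SD, n = 16) and 406 ± 181 CPM (SD, n = 15), and the edgeR estimate was a log2 fold change of 0.49 (SE 0.21), given as a description. The spread was wider in the SER group, in which 5 of the 15 embryos were below the control median. The estimate was 0.48 without control replicate 4 and SER replicate 15, and it was 0.19 when limma voom weighted libraries by their quality.

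Gatad2b (chr3:90293178-90363407, plus strand), the paralogous p66β subunit, ranged from 51.7 CPM through a median of 281 CPM to 569 CPM in control-generated embryos and from 164 CPM through 275 CPM to 669 CPM in SER-generated embryos. The groups overlapped almost completely, and the highest value in each belonged to the pair of embryos with low zygotic levels. The log2 fold change was 0.13 (SE 0.23, edgeR adjusted p = 0.976). Leaving out SER replicate 15 moved it to -0.02. Exons of Gatad2b share 247 bases with 4930537H20Rik on the opposite strand, and since the strand setting of the counting is not given in the sources used here, reads from those bases cannot be told apart.

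**Figure D1:**
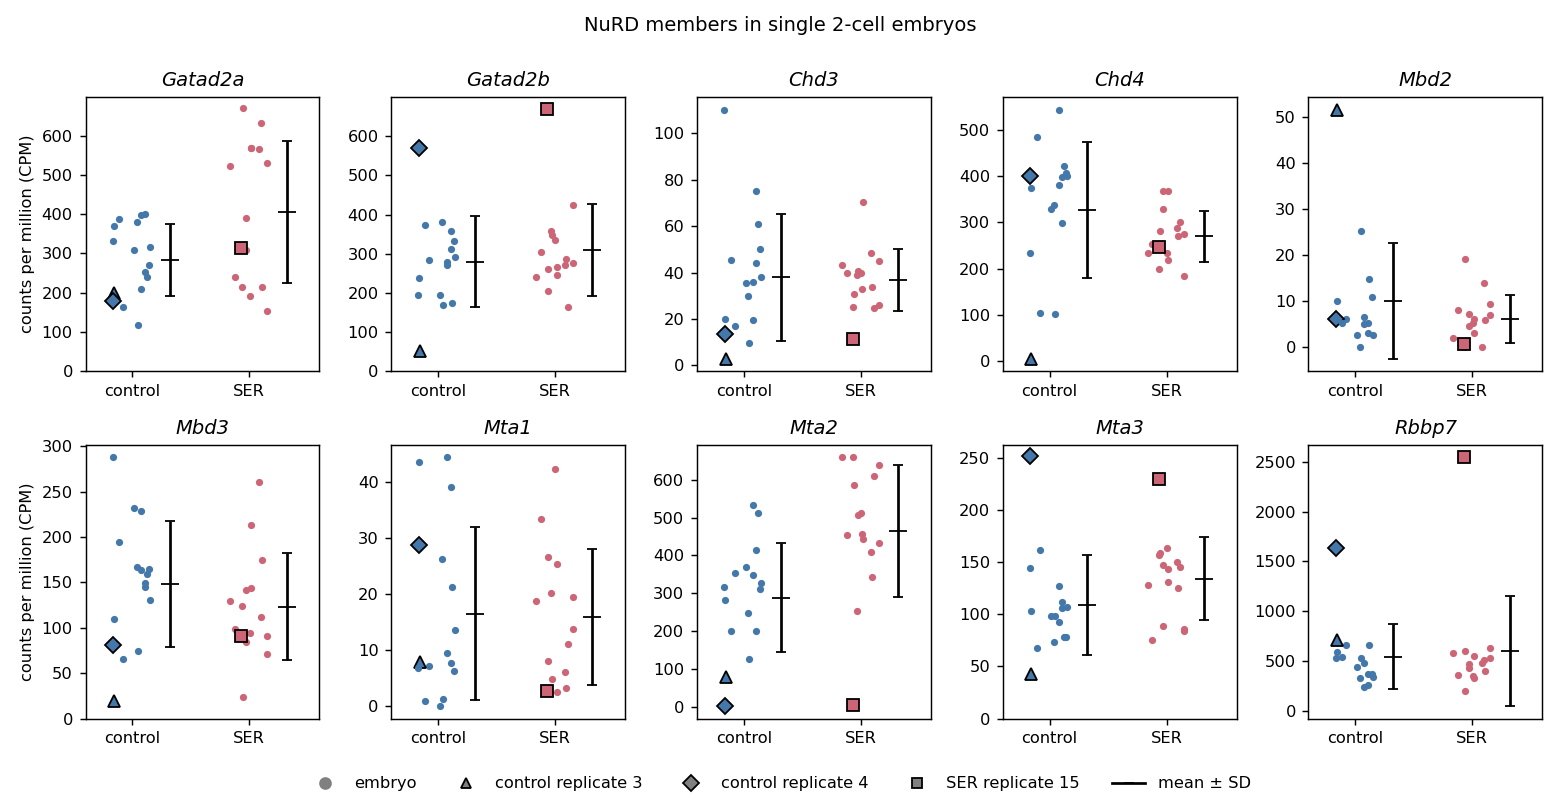
Level of each NuRD member in single 2-cell embryos, in CPM (linear axes, each panel with its own range). Points are embryos (16 control, 15 SER), bars are the mean ± SD, and outlined symbols mark control replicates 3 and 4 and SER replicate 15. Gatad2a reaches 670 CPM in SER-generated embryos against at most 399 CPM in control-generated embryos, and Mta2 is near 0 in control replicate 4 and SER replicate 15.

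Chd4 (chr6:125095981-125130591, plus strand), the main ATPase of the complex in most cells, had a control range of 4.88 to 544 CPM with a median of 378 CPM, and an SER range of 184 to 367 CPM with a median of 270 CPM. All 15 SER-generated embryos were below the control median, and 9 of the 16 control-generated embryos were above the highest SER value, but 3 control-generated embryos were lower than any SER-generated embryo. The lowest of these, control replicate 3, had 5 Chd4 counts. The log2 fold change was -0.28 (SE 0.28, edgeR adjusted p = 0.958), within the spread between embryos. With any 1 embryo left out it ran from -0.38 to -0.22, with an edgeR adjusted p of 0.792 or more.

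Chd3 (chr11:69343273-69369406, minus strand), the alternative ATPase, had a mean level of 4.43 ± 2.53 CPM per kilobase of exon (SD, n = 31), against 37.3 ± 14.2 for Chd4. Unscaled, it was 2.93, 35.7 and 110 CPM (lowest, median, highest) in control-generated embryos and 11.3, 38.9 and 70.2 CPM in SER-generated embryos. The ranges overlapped throughout, and the log2 fold change was -0.06 (SE 0.31, edgeR adjusted p = 0.992).

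Mbd3 (chr10:80392539-80399550, minus strand), the subunit that has lost strong binding to methylated CpG in mammals, was 19.5, 154 and 288 CPM in control-generated embryos and 23.9, 112 and 260 CPM in SER-generated embryos (lowest, median, highest). Although 12 of the 15 SER-generated embryos were below the control median, the ranges covered each other and the log2 fold change was -0.27 (SE 0.26, edgeR adjusted p = 0.951). Mbd2, its paralogue that binds methylated CpG, was the least abundant member, at 0 to 51.7 CPM with a median of 5.97 CPM in control-generated embryos and 0 to 19.1 CPM with a median of 5.98 CPM in SER-generated embryos. No Mbd2 count was found in 3 embryos, and a count of 0 allows up to 5.63, 3.44 and 3.04 CPM in control replicate 7, SER replicate 5 and SER replicate 11 (3 counts in each library, counting error only). The filter on low counts removed Mbd2, and edgeR gave it a log2 fold change of -0.80 in the fit of all 17803 genes with a count (SE 0.61, adjusted p = 0.680). The control mean of Mbd2 rested in part on control replicate 3, which had 51.7 CPM: the control mean was 10.1 CPM with that embryo and 7.31 CPM without it, against 6.17 CPM in the SER group.

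Mta2 (chr19:8941875-8952303, plus strand), the most abundant of the deacetylase-holding subunits, had the highest estimate among the members. Control-generated embryos had 1.51 CPM at the lowest, 314 CPM at the median and 534 CPM at the highest, and SER-generated embryos had 3.89, 455 and 660 CPM. Of the SER-generated embryos, 13 of 15 were above the control median and 5 were above every control-generated embryo. Both low ends belonged to the embryos that stood apart, control replicate 4 with 1 Mta2 count and SER replicate 15 with 10. The means were 289 ± 144 CPM (SD, n = 16) and 464 ± 174 CPM (SD, n = 15), with a log2 fold change of 0.70 (SE 0.37, edgeR adjusted p = 0.869). Without that pair of embryos the estimate was 0.68 (SE 0.20, adjusted p = 0.312). Mta2 passed an adjusted p of 0.1 under limma voom with library quality weights (adjusted p = 0.0953) and with 3 clusters of embryos estimated from the data as a covariate (adjusted p = 0.0778), and did not under DESeq2 (adjusted p = 0.655). Over the 12 alternatives other than leaving out 1 embryo, its adjusted p lay between 0.0778 and 1.00.

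Mta3 (chr17:83706163-83821516, plus strand), a subunit first studied in breast epithelium, was 42.9, 101 and 252 CPM in control-generated embryos and 74.9, 143 and 230 CPM in SER-generated embryos (lowest, median, highest). More SER-generated embryos were above the control median (11 of 15) than below it, the ranges overlapped, and the log2 fold change was 0.27 (SE 0.22, edgeR adjusted p = 0.936). Mta1 (chr12:113098278-113137206, plus strand), the founding member of the family, was low in both groups, with medians of 8.61 and 13.7 CPM and highest values of 44.4 and 42.2 CPM in control- and SER-generated embryos. Control replicate 9 had no Mta1 count, which allows up to 4.09 CPM. The Mta1 log2 fold change of -0.07 (SE 0.51, edgeR adjusted p = 0.993) changed sign when any of 7 embryos was left out, to 0.10 at most.

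Rbbp7 (chrX:162760402-162779092, plus strand), a histone-binding WD40 chaperone shared with other chromatin complexes, had a control range of 241 to 1637 CPM with a median of 504 CPM and an SER range of 202 to 2547 CPM with a median of 483 CPM. The 2 highest values, in SER replicate 15 and control replicate 4, were the embryos with the least zygotic RNA, and no other embryo exceeded 706 CPM. The log2 fold change was 0.08 (SE 0.31, edgeR adjusted p = 0.987) and turned to -0.35 without SER replicate 15. Of the 30-base stretches of Rbbp7 exon, 16.9% also occur in another annotated gene, mostly Gm6382, and 174 exon bases overlap Txlng on the opposite strand, so the Rbbp7 level is uncertain to that extent.

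Besides Gatad2a, 8 members passed the filter. Of these, 0 were called at an adjusted p under 0.1 by edgeR, where the share called among all 8571 genes tested was 0%, and 0 had an unadjusted p under 0.05, a level reached by 491 genes (5.73% of those tested, 2.18% in the higher and 3.55% in the lower direction). The estimate was higher in SER-generated embryos for 4 of the 8 and lower for 4, with a median log2 fold change of 0.0078, beside 52.7% higher and a median of 0.02 over all genes tested. Again without Gatad2a, DESeq2 called 0 of 7 members (0.605% of its genes), limma voom with quality weights called 1 of 8, Mta2 (9.89% of genes), and the fit with estimated clusters also called 1 of 8, Mta2 (0.478% of genes). ComBat-seq on those clusters followed by DESeq2 called 0 of 9 (1.11% of genes), and the fit of all genes with a count called 0 of 9 (2.83% of genes). The clusters were estimated from expression and are not the study's batches.

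**Figure D2:**
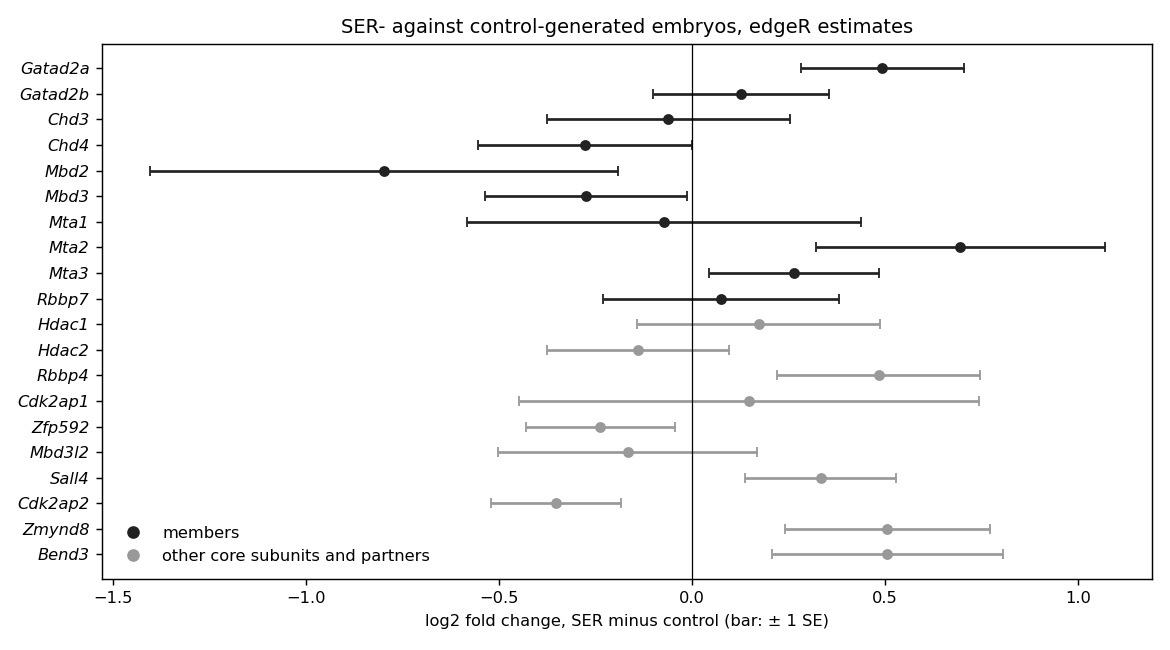
Log2 fold change of each member (black) and of the other core subunits and the 6 most abundant partners (grey), SER minus control, from the edgeR fit of all genes (Mbd2 from the fit without a filter). Bars are ± 1 SE. Gatad2a (0.49) and Mta2 (0.70) lie highest among the members and Mbd2 (-0.80) lies lowest.

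The deacetylases and the remaining core subunits did not pass the test in either direction. Hdac1, the catalytic subunit, had 139 ± 68.0 CPM in control-generated and 159 ± 64.9 CPM in SER-generated embryos (log2 fold change 0.17, edgeR adjusted p = 0.976), and Hdac2, its paralogue, had 80.7 ± 31.6 and 75.4 ± 33.7 CPM (-0.14, adjusted p = 0.975). Rbbp4, the paralogue of Rbbp7, had 70.6 ± 34.7 and 102 ± 46.4 CPM (0.48, SE 0.26, edgeR adjusted p = 0.869) and passed with limma voom quality weights (adjusted p = 0.0493). On the opposite strand, 1578 of its exon bases overlap Gm26722 and Sync. Cdk2ap1, a small accessory subunit, varied more than its group difference, at 274 ± 312 and 321 ± 304 CPM (0.15, SE 0.59, edgeR adjusted p = 0.987).

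The 24 core and partner genes outside the members gave 15 that passed the filter, of which 0 were called by edgeR, 10 leaning towards SER-generated and 5 towards control-generated embryos. Their median log2 fold change was 0.15, beside 0.02 and 52.7% higher over all genes tested. An unadjusted p under 0.05 was reached by 1 of the 15, near the share of 5.73% over all genes, and nothing is read from it. That gene was Cdk2ap2, the paralogue of Cdk2ap1, at 229 ± 41.2 CPM in control-generated and 183 ± 51.1 CPM in SER-generated embryos (-0.35, SE 0.17, edgeR adjusted p = 0.868). Among the 6 partners with the highest mean level, Zmynd8 (0.51), a reader of acetylated histones that recruits NuRD, Bend3 (0.51), a BEN-domain repressor, and Sall4 (0.33), a pluripotency factor that binds NuRD, had positive estimates. Zfp592 (-0.24), a zinc finger partner of Zmynd8, and Mbd3l2 (-0.17), an Mbd3-like protein without a methyl-CpG-binding domain, had negative ones. The edgeR adjusted p-values of these 5 genes lay between 0.869 and 0.978. Of the 15 core and partner genes, limma voom with quality weights called 3, Rbbp4 among them, where it called 9.89% of all genes. Its unadjusted p was under 0.05 for 8 of the 15, beside 1977 of 8571 genes. Their median log2 fold change with voom was 0.35, beside -0.015 over all genes. DESeq2 and the fit with estimated clusters called 0 of the 15.

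The members differed widely in level when counts were scaled to the length of their exons. The order of mean level over the 31 embryos, on the log2 scale of CPM per kilobase plus 1, was Rbbp7, Mta2, Mbd3, Gatad2a, Chd4, Gatad2b, Mta3, Chd3, Mta1 and Mbd2. This pooled order held in neither group exactly. In control-generated embryos Mbd3 came before Mta2 (means of 74.6 ± 34.7 and 70.5 ± 35.3 CPM per kilobase), in SER-generated embryos Gatad2a came before Mbd3 (72.6 ± 32.3 and 62.1 ± 29.5), and the positions of Rbbp7 and of the genes from Chd4 to Mbd2 were the same in both. The mean level over all 31 embryos was 196 ± 152 CPM per kilobase (SD, n = 31) for Rbbp7, 61.2 ± 27.3 for Gatad2a, 25.7 ± 10.2 for Gatad2b and 2.55 ± 3.04 for Mbd2. The place of Mbd3 depends on the length scaling. By unscaled mean it had 136 CPM, below Gatad2a (342 CPM), Chd4 (299 CPM) and Gatad2b (294 CPM), and the order of the other members was the same. The counts merge 5′ reads with internal reads in shares that are not given, so how far length scaling applies is not known.

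Of the 9 pairs of neighbours in this order, 5 differed in a paired permutation test (2-sided, sign flips within embryos, Benjamini-Hochberg over the 9 pairs). Rbbp7 exceeded Mta2 in 26 of 31 embryos (adjusted p = 6.0e-05), Gatad2a exceeded Chd4 in 26 of 31 (adjusted p = 6.0e-05), and Chd4 exceeded Gatad2b in 25 of 31 (adjusted p = 0.00812). Gatad2a was chosen by its group difference and this test pools the groups, so its p-values for Gatad2a are not read as support. Means of Gatad2a and Chd4 were 50.6 ± 16.4 and 40.7 ± 18.3 CPM per kilobase in control-generated embryos. In SER-generated embryos they were 72.6 ± 32.3 and 33.6 ± 6.88. All embryos with Chd4 above Gatad2a were control-generated. Mta3 exceeded Chd3 in all 31 embryos, by 2.19 on the log2 scale (adjusted p = 6.0e-05), and Mta1 exceeded Mbd2 in 23 of 31 (adjusted p = 0.0161). Mta2 and Mbd3 (adjusted p = 0.618), Mbd3 and Gatad2a (adjusted p = 0.618), Gatad2b and Mta3 (adjusted p = 0.248) and Chd3 and Mta1 (adjusted p = 0.857) were not separated by this test. With the length of the longest transcript in place of all exons, the differences between Chd4 and Gatad2b and between Mta1 and Mbd2 no longer passed. Without control replicate 4 and SER replicate 15, Mta2 also exceeded Mbd3 (adjusted p = 0.00844).

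**Figure D3:**
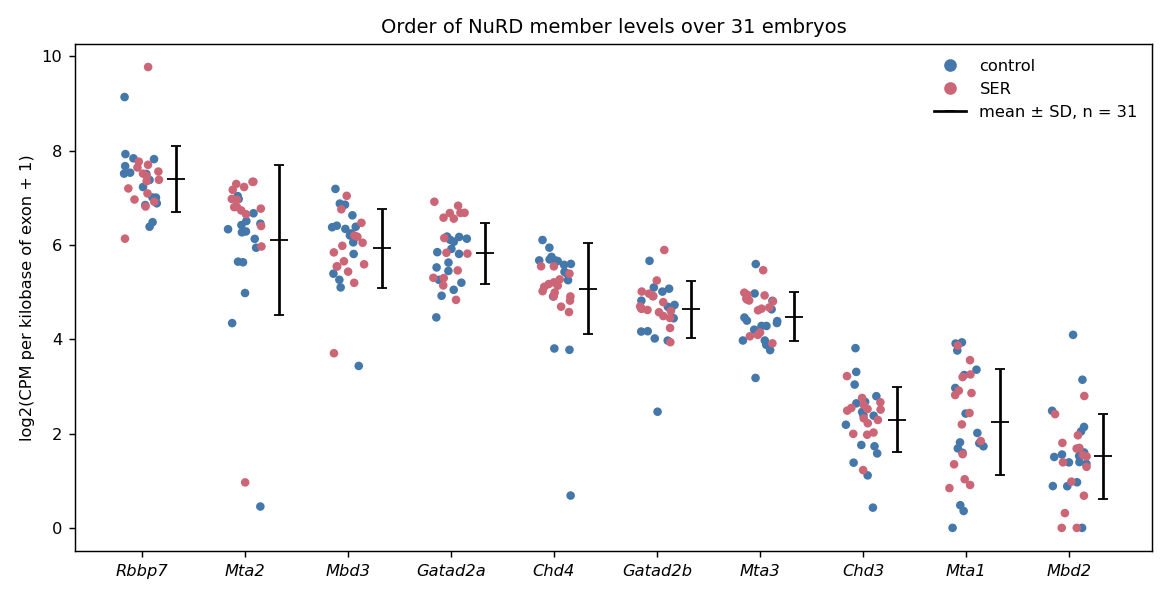
Level of each member per kilobase of exon, log2(CPM per kilobase + 1), in the order of the mean over 31 embryos. Points are embryos coloured by group and bars are the mean ± SD (n = 31). The levels fall from Rbbp7 to Mbd2, with a step of 2.19 between Mta3 and Chd3.

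Within each pair or trio of alternative subunits, one gene supplied most of the length-scaled counts. Chd4 made up 88.0 ± 9.14% of Chd3 plus Chd4 in control-generated and 88.6 ± 3.04% in SER-generated embryos, and exceeded 50% in all 31 embryos. Mbd3 made up 92.7 ± 15.2% and 95.1 ± 8.13% of Mbd2 plus Mbd3 and exceeded 50% in 30 of 31, the exception being control replicate 3 at 37.9%. Mta2 made up 69.9 ± 19.7% and 74.9 ± 20.6% of the Mta family and exceeded 50% in 29 of 31 embryos, the others being control replicate 4 (0.647%) and SER replicate 15 (2.11%). The difference between the groups did not pass a 2-sided permutation test for Chd4 (0.615 points), Mbd3 (2.34 points) or Mta2 (5.00 points, adjusted p = 0.799 for each). Leaving out control replicate 4 and SER replicate 15, the Mta2 share of its family differed by 5.58 points (adjusted p = 0.0495), and leaving out SER replicate 15 alone it differed by 10.2 points (adjusted p = 0.0410). Gatad2a made up 67.5 ± 11.4% of Gatad2a plus Gatad2b in control-generated and 70.1 ± 13.8% in SER-generated embryos, a difference of 2.70 points given as a description, and it exceeded 50% in 28 of 31 embryos. This share depends on the exon lengths used, 5589 bases for Gatad2a and 11443 for Gatad2b. Unscaled, Gatad2a and Gatad2b had means of 283 and 280 CPM in control-generated and 406 and 310 CPM in SER-generated embryos.

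**Figure D4:**
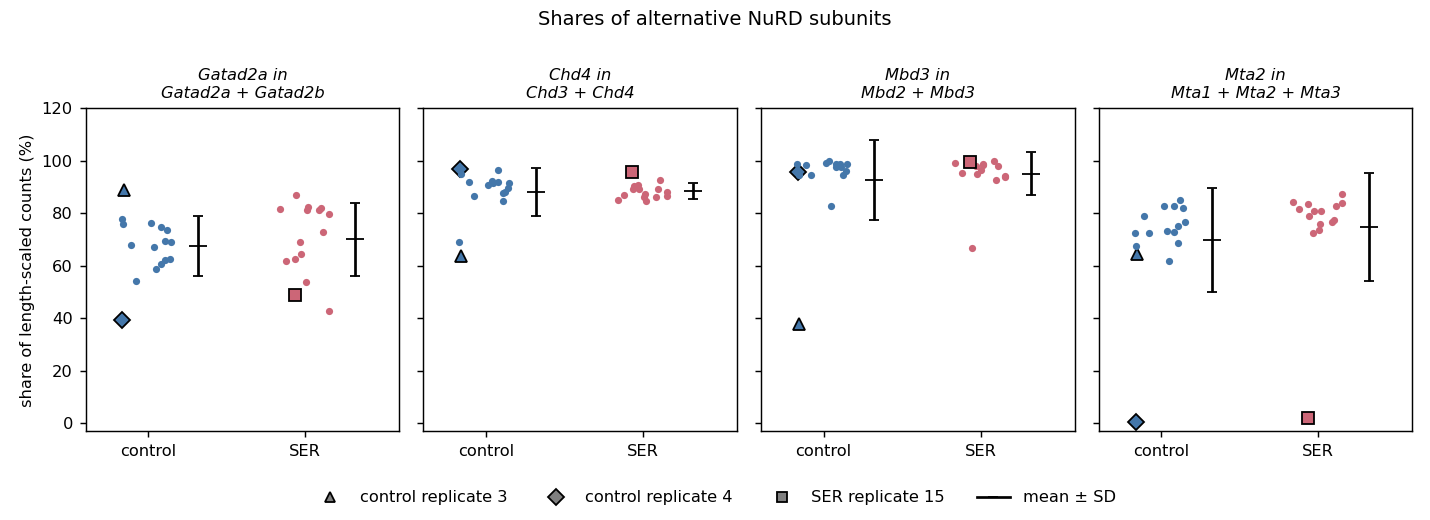
Share of one gene in the length-scaled counts of its family of alternative subunits, in percent, for each embryo (16 control, 15 SER), with the mean ± SD. Outlined symbols mark control replicates 3 and 4 and SER replicate 15. Mta2 falls to 0.647% and 2.11% of its family in control replicate 4 and SER replicate 15, and Gatad2a exceeds 50% in 28 of 31 embryos.

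The variation of Rbbp7 among single embryos rested on 2 of them. Its coefficient of variation was 77.8% over 31 embryos, higher than that of 92.6% of the 500 genes nearest to it in mean CPM. Without SER replicate 15 it was 50.0% (above 65.8% of the nearest genes), and without control replicate 4 as well it was 28.8% (above 12.6% of them). Mta3 varied little with or without that pair: its coefficient of variation was 37.5% over 31 embryos, above 12.6% of its 500 nearest genes, and 29.5% over 29, above 2.6% of them. Gatad2a was in the middle of its neighbours (44.6%, above 45.6% of them, and 44.4%, above 55.6%, without the pair).

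Levels were also set against the summed maternal and zygotic genes and the total count of each embryo, in 30 relations adjusted together. CPM values of 1 embryo are shares of the same library, which ties the measures to each other. The maternal sum is unweighted, and its most abundant genes were Btg4 (mean 1941 CPM), Bmp15 (753 CPM) and Oosp1 (537 CPM). It therefore follows these genes most, and relations with single maternal genes were not tested. Mta2 fell as the maternal sum rose, with Pearson's r = -0.74 and Spearman's rho = -0.79 over 31 embryos (permutation p = 1e-05 for each, the smallest that 100000 permutations can give, adjusted p = 0.0003 for each). The relation was present within control-generated embryos (r = -0.80, rho = -0.98, n = 16) and within SER-generated embryos (r = -0.68, rho = -0.70, n = 15). Without control replicate 4 and SER replicate 15 it was r = -0.77 and rho = -0.74, and without the 2 embryos farthest from the median maternal sum it was r = -0.71. Over all genes tested the median rho with the maternal sum was -0.06, and 1.63% of genes had a lower rho than Mta2. The median maternal sum was 4011 CPM in control-generated and 3873 CPM in SER-generated embryos, and its part in the difference of Mta2 between the groups was not tested.

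By rank, 3 more relations passed: Chd4 with the total count (rho = -0.57, r = -0.21, adjusted p = 0.0156 for rho and 0.511 for r), Chd4 with the zygotic sum (rho = -0.54, r = -0.36, adjusted p = 0.0198 and 0.179) and Mbd2 with the zygotic sum (rho = 0.51, r = 0.34, adjusted p = 0.0325 and 0.194). Within control- and SER-generated embryos, rho was -0.26 and -0.64 for Chd4 with the total count, -0.39 and -0.45 for Chd4 with the zygotic sum, and 0.54 and 0.49 for Mbd2 with the zygotic sum. Of the 8571 genes tested, 0.607% had a lower rho than Chd4 with the total count and 2.84% with the zygotic sum. Mbd2 had only 0 to 53 counts per embryo and was removed by the filter, so no such share was computed for it. The share of all genes that would pass was not computed, so the number passing is not read as a trait of the members. The Mta2 relation alone passed once the group means were removed. Without control replicate 4 and SER replicate 15, Chd3 (rho = -0.66, r = -0.65, adjusted p = 0.00225 for rho) and Mbd3 (rho = -0.60, r = -0.63, adjusted p = 0.00610) also fell as the zygotic sum rose. Over all 31 embryos these had rho = -0.41 and -0.42 (adjusted p = 0.0692 for each). Of all genes tested, 10.9% had a lower rho with the zygotic sum than Chd3 and 9.40% a lower rho than Mbd3. Chd3 and Mbd3 passed without control replicate 3 as well (rho = -0.62 and -0.56), whereas Mbd2 with the zygotic sum did not (rho = 0.45, adjusted p = 0.0604). With control replicates 3 and 4 and SER replicate 15 left out, Chd4 also passed by r. It gave r = -0.53 with the total count (permutation adjusted p = 0.0205) and -0.55 with the zygotic sum (adjusted p = 0.0142). Without the pair, Mbd3 with the total count (rho = -0.45), Rbbp7 with the total count (rho = 0.48) and Mta3 with the maternal sum (rho = -0.45) passed too, the last no longer once control replicate 3 was left out. Rbbp7 rose with the maternal sum by Pearson's r (0.60, adjusted p = 0.00705) but not by rank (rho = 0.43, adjusted p = 0.0692), and r was 0.35 without control replicate 4 and SER replicate 15. Also by r but not by rank, Gatad2b (r = -0.58, adjusted p = 0.0355) and Rbbp7 (r = -0.51, adjusted p = 0.0495) fell with the zygotic sum. Chd3 fell with the maternal sum in the same way (r = -0.49, adjusted p = 0.0355). Without that pair of embryos r was -0.38, 0.27 and -0.37, and none of these passed. Mta2 and the zygotic sum gave r = 0.74 over 31 embryos and r = -0.09 over the 29 without that pair, so that relation rests on those embryos. Gatad2a passed with none of the 3 measures (rho = 0.09 with the total count, -0.27 with the zygotic sum and -0.13 with the maternal sum).

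**Figure D5:**
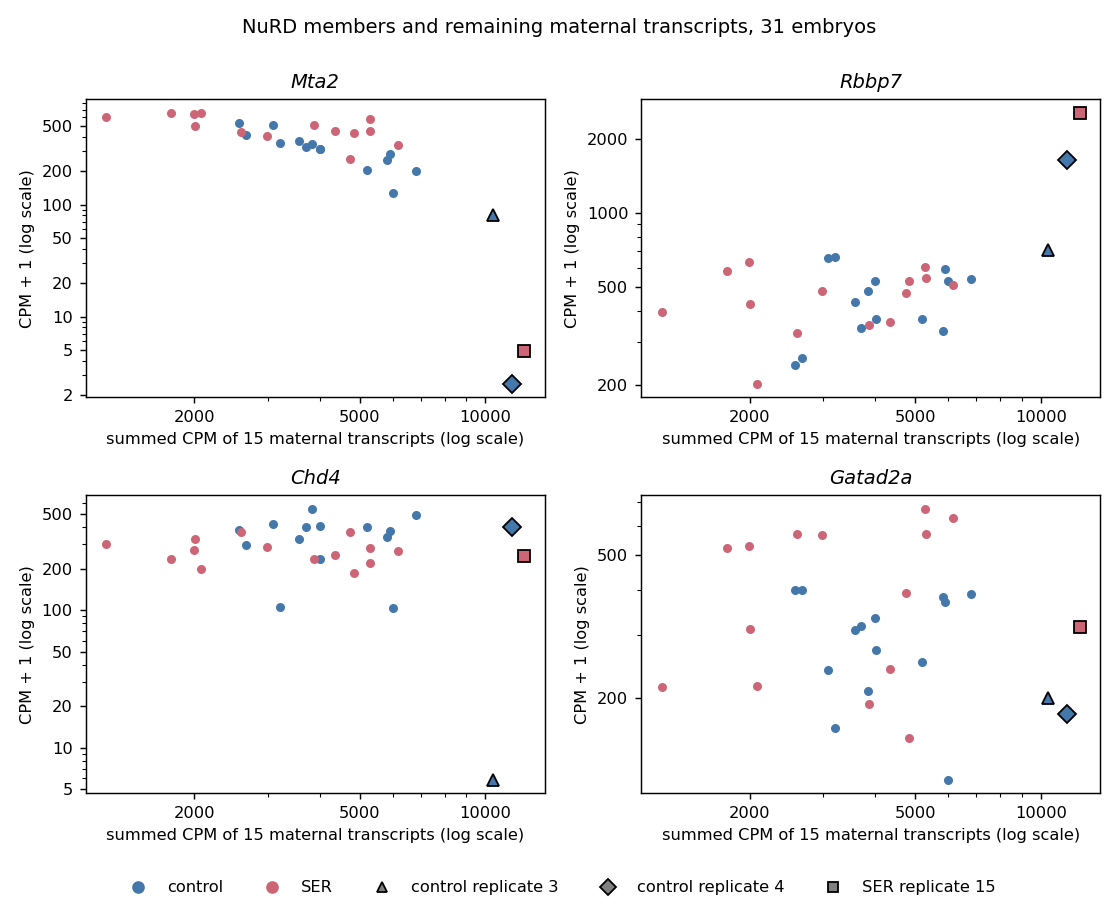
Level of Mta2, Rbbp7, Chd4 and Gatad2a (CPM + 1, log axis) against the summed CPM of 15 maternal transcripts (log axis), 1 point per embryo, coloured by group. Outlined symbols mark control replicates 3 and 4 and SER replicate 15. Mta2 falls with the maternal sum (rho = -0.79), and Rbbp7 is highest in the pair of embryos at the right, at 1637 and 2547 CPM.

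The members did not vary together as a block. Over the 36 pairs of the 9 tested members, with group means removed, rho ran from -0.45 to 0.59 with a median of 0.01, and 20 pairs were positive. Chd3 and Mbd3 were the closest pair (rho = 0.59, n = 31). With Gatad2a, rho was 0.46 for Chd3, 0.41 for Mbd3 and 0.26 for Chd4, while its paralogue Gatad2b had -0.06 and Mta2 0.12, beside a median of 0.07 over all genes.

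The 5 tested genes whose pattern over the 31 embryos was most like that of Gatad2a were Kmt2d (rho = 0.82), which encodes a histone H3 lysine methyltransferase, Arf5 (0.81), a small GTPase of vesicle traffic, Cdca4 (0.81), Ubp1 (0.80), a transcription factor of the grainyhead group, and Myo1c (0.80), a myosin motor. These values are a description of embryos that share differences in depth and stage, and 2 of the 5 stayed among the nearest when the group means were kept. Of the core subunits, Cdk2ap1 ran most against Gatad2a (rho = -0.57).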

How the data were processed

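Single 2-cell embryos were profiled by Smart-seq3, a full-length method that tags 5′ reads with a molecular identifier. Per the study's methods and the submitters' processing notes, 5′ and internal reads were aligned separately with STAR to mm10, duplicates were removed with UMI-tools and Picard, and featureCounts counted the merged reads per gene. The deposited values are these whole-number counts, which the authors did not normalize in this table. The study applied ComBat-seq and DESeq2 afterwards. The annotation, strand setting and tool versions are not given in the sources used here, and the study's batches are not named per embryo.

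The whole table was fitted with edgeR 4.0.16 (R 4.3.3): TMM normalization, filterByExpr (minimum count 10, minimum total count 15), the quasi-likelihood test and Benjamini-Hochberg adjustment over 8571 genes, with an adjusted p under 0.1 as the threshold. Mbd2, which the filter removed, was read from the fit of 17803 genes. Level order, shares and relations used log2(CPM + 1), CPM per kilobase or length-scaled shares with 100000 permutations and an adjusted p under 0.05, with exon lengths and positions from GENCODE vM21 (GRCm38). The named genes were the 10 members, the core subunits Hdac1, Hdac2, Rbbp4 and Cdk2ap1, the 6 of 20 partners with the highest mean CPM, and the 5 genes most like Gatad2a. The members and lists were chosen with earlier results of these data known. Alternatives were DESeq2 1.42.0, limma voom 3.58.1 with quality weights, ComBat-seq (sva 3.50.0) on estimated clusters, other filters and scalings, a replicate block and leaving out embryos. The script was tested on simulated data.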

Additional observations from a re-analysis of the deposited data

How the results depend on the processing

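No member changed its side of the threshold between the 2 groups of embryos when any 1 embryo was left out, and the 31 such fits called 0 genes. Calls among all genes moved from 0 to 504 without a filter, 45 with DESeq2, 848 with limma voom and quality weights, 41 with estimated clusters and 144 with ComBat-seq and DESeq2, and members called moved from 0 to 1 (Mta2) with voom and to 1 (Mta2) with the clusters. The cause of these differences between tools was not tested. Gatad2a kept a positive estimate throughout, from 0.42 to 0.56 with 1 embryo left out and from 0.19 to 0.50 over the other alternatives. These fits reuse the embryos by which Gatad2a was chosen, so its unchanged sign is a description and adds no support.

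Estimates near 0 changed sign. These were Mta1 with voom (0.34), and with the log2 total count as a covariate Chd3 (0.090), Mta1 (0.035) and Rbbp7 (-0.30). Rbbp7 also did so with the clusters (-0.067) and with ComBat-seq (-0.10). Without control replicate 4 and SER replicate 15 the signs of Mta1 (0.10) and Rbbp7 (-0.093) changed, and without control replicates 3, 4 and 5 and SER replicate 15 Mta1 was 0.0027 and Rbbp7 -0.038. These omissions, and those of control replicate 3, were chosen after seeing the data. With 1 embryo left out, log2 fold changes ran from -0.019 to 0.26 for Gatad2b, from -0.16 to 0.14 for Chd3, from -0.25 to 0.10 for Mta1, from -0.35 to 0.32 for Rbbp7 and from -0.18 to 0.56 for Cdk2ap1.

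The labels do not say whether embryos with the same replicate number belong together, and a check of their correlations had no reference value to settle it. Over 15 pairs the correlation of their deviations had a median of 0.11 (-0.37 to 0.49), 8 exceeded 0.1 and 4 matched best with their own number. The fit with the replicate block called 0 genes and 0 members, and gave Chd3 0.22, Rbbp7 -0.056 and Cdk2ap1 -0.16.

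With the longest transcript as length, 3 neighbours in the level order differed. The Chd3 over Mta1 level ran from -0.035 to 0.12 with 1 embryo left out. The group difference in the Mta2 share of its family was 5.58 points without control replicate 4 and SER replicate 15 and ran from 0.386 to 10.2 points with 1 embryo left out, that of the Chd4 share from -1.01 to 1.21 and that of the Mbd3 share from -1.31 to 4.35.

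Of the 30 relations with embryo state, 1 passed by rank with group means removed, 9 without control replicate 4 and SER replicate 15, and 7 without control replicate 3 as well. The share of all genes that would pass was not computed. Among weak relations the sign of rho changed for Gatad2a with total (-0.017) and Mta1 with maternal (0.0020) with group means removed, for Mta1 with maternal after TMM (0.00040) and thinning (0.031), and without control replicate 4 and SER replicate 15 for Mta1 with total (0.094) and Mta3 with zygotic (0.10). Without control replicate 3 as well, rho was 0.085 for Mta1 with total, 0.22 for Mta3 with zygotic, 0.018 for Gatad2a with maternal, 0.039 for Chd4 with maternal and 0.028 for Mta1 with maternal. Of the 5 genes most like Gatad2a, 2 stayed when group means were kept and 3 when counts were thinned to the smallest library. The Rbbp7 coefficient of variation was 50.0% without SER replicate 15, 75.5% without control replicate 4 and 28.8% without both. Depth limits Mbd2 and Mta1 most, which had 0 counts in some embryos.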
